A study of Mus musculus with 10 samples.

Results

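The endocannabinoid system of the nucleus accumbens (NAc, part of the ventral striatum) was described here through 9 genes, which are its brain receptor and the enzymes that make and break down its lipids. The genes were chosen by symbol, and all 9 were found by their Ensembl IDs among the 29883 genes of the deposited count table. The NAc was taken from 5 C57BL/6J (B6) and 5 DBA/2J (D2) mice, all male, ethanol-naïve, untreated and 9 weeks old, with 1 poly-A library per mouse. The 2 strains are inbred and differ in several responses to ethanol, and the series was made to compare them at baseline. The comparison is between whole strains, so a difference cannot be assigned to any one locus. Reads of both strains were aligned to the B6 genome, so reads that carry D2 alleles may align less often.

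Endocannabinoids are lipids that neurons make on demand and release backwards across the synapse, where they act on the CB1 receptor of the presynaptic terminal and lower transmitter release. The main ones are 2-arachidonoylglycerol (2-AG) and anandamide, and each has its own enzymes of synthesis and hydrolysis. In the striatum this signal drives a well-known form of synaptic depression at the inputs of medium spiny neurons, the principal cells of the NAc.

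The genes lie apart in the genome (GRCm39). The receptor gene Cnr1 (ENSMUSG00000044288, chromosome 4, 33922982 to 33948836) and Faah (ENSMUSG00000034171, chromosome 4, 115824342 to 115875423) share a chromosome but not a neighbourhood. Napepld (ENSMUSG00000044968, 21867688 to 21923575), Naaa (ENSMUSG00000029413, 92405517 to 92426085) and Daglb (ENSMUSG00000039206, 143450236 to 143496130) lie on chromosome 5. Dagla (ENSMUSG00000035735) lies on chromosome 19, Mgll (ENSMUSG00000033174) on chromosome 6, Abhd6 (ENSMUSG00000025277) on chromosome 14 and Abhd12 (ENSMUSG00000032046) on chromosome 2.

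Gene counts summed to between 96977262 and 116776714 per library, and the lowest raw count of any member in any library was 642. Counts were scaled by TMM factors to normalized counts, which have the mean depth of the 10 libraries. Strains were compared with edgeR's quasi-likelihood test over all genes, and the threshold was a Benjamini-Hochberg adjusted p of 0.05. The 9 markers of striatal neurons were all present, with at least 11330 raw counts in each library.

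Of the B6 libraries, 2 stood apart. Markers of cortex neurons (Slc17a7, Neurod6, Tbr1, Neurod2, Emx1 and Cux2) summed to 16090, 15285 and 23832 normalized counts in B6 replicates 1, 2 and 4, but to 104495 in B6 replicate 3 and 106265 in B6 replicate 5. D2 mice lay in the gap between them, at 31317, 64178, 70389, 57054 and 40990 for replicates 1 to 5. None of these markers passed the test between the strains, and none was at 0 in any library. The summed markers of striatal neurons were 412620 and 410011 in B6 replicates 3 and 5, the lowest of the strain, and between 474186 and 544997 in the other B6 mice. They ranged from 354111 to 429231 in D2, with 5 of the 9 markers lower in D2 (edgeR, adjusted p under the threshold) and 0 higher. Of 6 oligodendrocyte markers, 4 were lower in D2 and 0 higher, and their sums were 669852 and 666460 normalized counts in B6 replicates 3 and 5, 463595 to 556049 in the other B6 mice and 350121 to 511323 in D2. Choroid plexus markers, of which 1 of 4 was lower in D2 and 1 was at 0 in a library, summed to 1989 and 2103 in B6 replicates 3 and 5, to 4039 to 4198 in the other B6 mice and to 3749 to 5002 in D2. The part of these lists in the strain differences was not tested. B6 replicates 3 and 5 were also the closest pair of the strain, yet differed by more than sampling noise (mean chi-square of 4.89 per gene, where noise alone gives about 1). The counts of calls are therefore also given without B6 replicates 3 and 5, a choice made after the data were seen, and with the cortex neuron marker level of each mouse as a covariate. In bulk tissue, fewer cells of a type and less RNA per cell cannot be told apart.

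Among the 9 genes, only Naaa differed between the strains past the threshold with all 10 mice in the fit, and it was lower in D2. Faah had the next largest difference, 1.30-fold higher in D2, which did not pass the test with all mice. It passed without B6 replicates 3 and 5, a fit chosen after the data were seen. These were its 2 highest B6 mice, so leaving them out raises the difference by itself. With the striatal neuron marker level as a covariate, the log2 fold change of Faah was -0.05 (edgeR adjusted p = 0.871). The count of 1 in 9 compares with 18.3% of all 29883 genes called in the same fit, and with 23.8% where the mean count reached 100 or more. By DESeq2, 1 member passed as well, where 22.1% of 28138 genes were called. The median log2 fold change was -0.05 over the members and 0.0036 over all genes. The strains did not overlap in 1 member, against 16.0% of all genes and 20.7% of those with such a mean count. Without B6 replicates 3 and 5 the calls were Daglb, Faah and Naaa, where 19.2% of all genes were called. With the cortex neuron marker level as a covariate they were Cnr1, Abhd12, Napepld, Faah and Naaa, where 26.1% of all genes were called. With the striatal neuron marker level in its place they were Cnr1, Abhd12, Napepld and Naaa, where 17.6% of all genes were called. Since 5 of the 9 striatal markers were lower in D2, that covariate and the strain are partly the same contrast, for these calls too. The cortex covariate has a limit as well, since no B6 mouse lay within the D2 range of the summed cortex neuron markers. B6 replicates 1, 2 and 4 were below that range and B6 replicates 3 and 5 above it. That fit thus compares the strains at levels where B6 had no mouse, which holds for every value given with the cortex covariate. The call of Naaa stood alone at 10 counts or more in every library and at an adjusted p under 0.01, where 23.7% and 11.4% of genes were called. The replicate number as a block gave 2 calls, Abhd12 and Naaa, where 15.8% of genes were called. With 1 mouse left out, 19.0%, 16.3%, 16.2%, 16.5% and 16.2% of genes were called for B6 replicates 1 to 5 and 16.5%, 16.2%, 16.0%, 15.5% and 15.8% for D2 replicates 1 to 5, and 1 or 2 members passed.

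**Figure D1:**
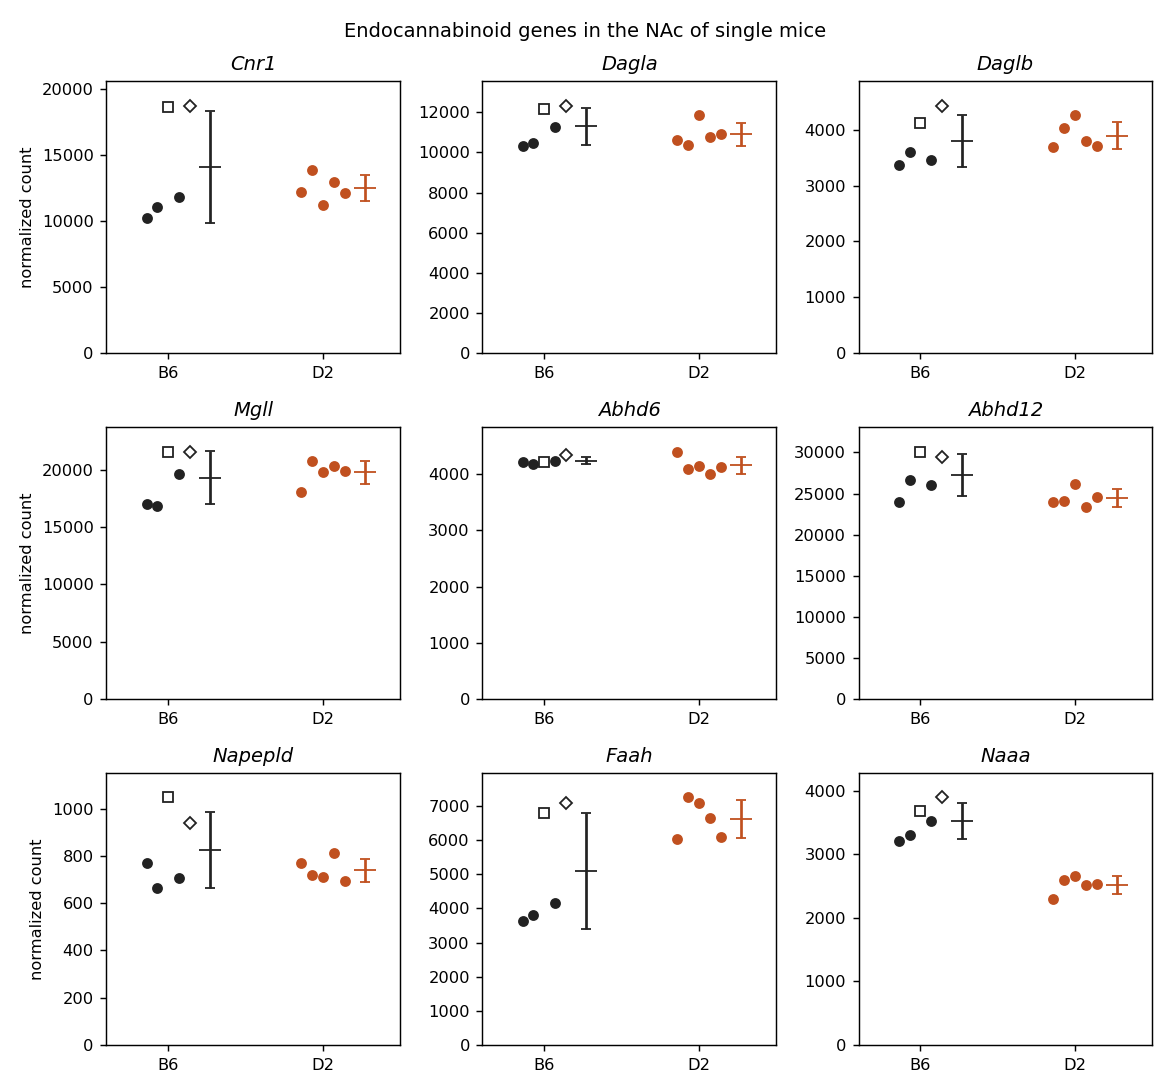
Normalized counts (y axis, from 0) of the 9 genes in each B6 (black) and D2 (orange) mouse, with the mean and SD of 5 mice beside the points. Open squares and diamonds are B6 replicates 3 and 5, which are the highest B6 mice for every gene but Abhd6. Naaa is the only gene whose strains do not overlap.

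Anandamide and related N-acylethanolamines are released from their phospholipid precursors by NAPE-PLD, the product of Napepld. They are hydrolysed by FAAH, the main anandamide hydrolase of the brain, and by NAAA, a lysosomal enzyme that prefers palmitoylethanolamide and is rich in macrophages. The fitted strain differences of the 2 hydrolase genes had opposite signs.

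Naaa had 3199, 3308, 3683, 3528 and 3892 normalized counts in B6 replicates 1 to 5 and 2292, 2598, 2658, 2515 and 2536 in D2 replicates 1 to 5. Every D2 mouse was below every B6 mouse, a separation that 16.0% of all genes showed in either direction. The log2 fold change was -0.48 (standard error 0.058, edgeR adjusted p = 6.2e-05), so that the D2 level was 0.715 of the B6 level (95% interval 0.655 to 0.781). It passed in all 22 alternatives, among them the same fit at an adjusted p under 0.01, with values between -0.56 and -0.41. Microglia are a known source of Naaa in brain. Of the 6 microglia markers, 1 (P2ry12) was called higher in D2 and 0 lower, where 8.50% and 9.83% of all genes were. The summed microglia markers overlapped, at 31849 to 35376 normalized counts in B6 and 28994 to 34638 in D2. The part of microglia in the Naaa difference was not tested.

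Faah had 3631, 3796 and 4154 normalized counts in B6 replicates 1, 2 and 4 and 6811 and 7107 in B6 replicates 3 and 5. D2 replicates 1 to 5 had 6049, 7258, 7080, 6665 and 6105. The D2 mice were thus above 3 of the B6 mice and level with the other 2, which had the high cortex neuron markers. The log2 fold change was 0.38 (standard error 0.18, edgeR adjusted p = 0.181), with a 95% interval of the fold from 0.994 to 1.70. Without B6 replicates 3 and 5 it was 0.78 (adjusted p = 4.4e-06), without B6 replicate 5 alone 0.52 (adjusted p = 0.047), and with the cortex covariate 0.26 (adjusted p = 2.7e-04). With the striatal neuron marker level as a covariate it was -0.05 (adjusted p = 0.871). That list is itself lower in D2, so the covariate and the strain are partly the same contrast. This limit holds for every gene fitted with it, whether the covariate weakens or strengthens a difference.

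Napepld was the lowest of the 9 genes. Its normalized counts were 771, 663.9, 1048, 704.6 and 939.2 in B6 replicates 1 to 5 and 768.8, 717.9, 710.4, 811.2 and 692.4 in D2 replicates 1 to 5. The strains overlapped, with B6 replicates 3 and 5 above all other mice. The log2 fold change was -0.16 (standard error 0.12, edgeR adjusted p = 0.424). It was 0.052 without B6 replicates 3 and 5 (adjusted p = 0.724) and -0.23 with the cortex covariate (adjusted p = 0.039), so its direction rested on these libraries. With the striatal covariate it was -0.45 (adjusted p = 0.0053), and without B6 replicate 3 alone -0.062 (adjusted p = 0.761). Napepld shares 367 exon bases with Armc10 on the opposite strand, and since the strand setting of the counting is not stated, reads from there cannot be told apart.

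Ratios within a library do not depend on its depth or scaling, and are given as a description without a test. The log2 ratio of Faah over Napepld counts, hydrolase over synthase, was 2.24, 2.52, 2.70, 2.56 and 2.92 in B6 replicates 1 to 5 and 2.98, 3.34, 3.32, 3.04 and 3.14 in D2 replicates 1 to 5. Each D2 value exceeded each B6 value, B6 replicates 3 and 5 included, with means of 3.16 ± 0.16 and 2.59 ± 0.25 (SD, n = 5). The nearest mice were close, at 2.92 in B6 replicate 5 and 2.98 in D2 replicate 1. Of single genes, 16.0% did not overlap between the strains, and the share of gene pairs was not counted. The log2 ratio of Naaa over Faah was -0.18, -0.20, -0.89, -0.24 and -0.87 in B6 and lay between -1.48 and -1.27 in D2. The strains did not overlap in this ratio, with a difference of D2 minus B6 of -0.92 between the means. Both ratios are made from counts given above. The fitted differences of each pair had opposite signs, so neither ratio is a separate result.

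The promoters of Naaa and Faah are shown because these genes had the largest fitted differences of the 9. Both were read from GRCm39 in the direction of transcription, on the reverse strand, up to the first annotated exon base. Motifs were searched on either strand by their letters, and none of the matches shown overlaps another. The GC box was searched as GGGCGG, a site of Sp1 factors. The box of NF-Y was searched as CCAAT. The TATA box was searched as TATAAA. The E-box of basic helix-loop-helix factors was searched as CACGTG. The core of the cyclic AMP response element was searched as TGACG. Capitals mark the matches.

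Naaa, chr5:92426086-92426285: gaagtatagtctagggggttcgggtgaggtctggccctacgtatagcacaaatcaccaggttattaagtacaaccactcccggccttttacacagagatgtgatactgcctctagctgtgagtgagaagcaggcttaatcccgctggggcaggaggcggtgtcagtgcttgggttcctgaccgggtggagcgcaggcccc
Faah, chr4:115875424-115875601: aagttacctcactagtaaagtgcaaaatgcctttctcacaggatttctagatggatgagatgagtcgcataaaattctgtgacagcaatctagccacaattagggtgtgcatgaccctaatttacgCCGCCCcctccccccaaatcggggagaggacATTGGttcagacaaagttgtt

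The Naaa window held none of these letters. The Faah window held 1 GC box and 1 CCAAT box, which 42% and 31.4% of the 200-base windows before the start sites of 17331 protein-coding genes also held. None of the 9 genes had TATAAA in its window, which 6.67% of all windows had. The GC content was 56% for Naaa and 47% for the 200 bases before the Faah start, against a median of 57% over all windows. The D2 sequence of these windows was not analysed here.

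2-AG is cut from diacylglycerol by the diacylglycerol lipases DAGLα (Dagla), the main form in adult neurons, and DAGLβ (Daglb), known from microglia and macrophages. Dagla had 10298, 10453, 12147, 11242 and 12323 normalized counts in B6 replicates 1 to 5 and 10609, 10367, 11851, 10754 and 10911 in D2 replicates 1 to 5. The strains overlapped, and the fitted fold was 0.965 (95% interval 0.887 to 1.05, edgeR adjusted p = 0.620).

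Daglb had 3364, 3604, 4125, 3455 and 4426 normalized counts in B6 replicates 1 to 5 and 3691, 4022, 4253, 3789 and 3715 in D2 replicates 1 to 5. The strains overlapped, with a fold of 1.03 (95% interval 0.917 to 1.15, adjusted p = 0.807 from edgeR). Without B6 replicates 3 and 5, the highest B6 mice for Daglb, the D2 mice were all above the other B6 mice. In that fit, chosen after the data were seen, the log2 fold change of 0.16 passed the test (edgeR adjusted p = 0.045). With the cortex covariate it was -0.02 (adjusted p = 0.786). Daglb shares 2682 exon bases, 16.1% of its exons, with Rac1 on the opposite strand. Rac1 had a mean of 26223 counts and was itself called lower in D2, and its reads in the shared bases cannot be told apart from those of Daglb if strand was not used.

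2-AG is broken down by monoacylglycerol lipase (Mgll), the main 2-AG hydrolase of brain, found in presynaptic terminals and astrocytes. ABHD6 does so on the postsynaptic side, and ABHD12, which is rich in microglia, also hydrolyses lysophosphatidylserine. None of these 3 genes passed the test with all mice.

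Mgll had 16992, 16859, 21524, 19636 and 21588 normalized counts in B6 replicates 1 to 5 and 18074, 20762, 19835, 20318 and 19886 in D2 replicates 1 to 5. The D2 mice lay within the range of the B6 mice, with a fold of 1.02 (95% interval 0.917 to 1.14, edgeR adjusted p = 0.823).

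Abhd6 varied least of the 9, with 4238 ± 59.5 normalized counts in B6 and 4154 ± 149 in D2 (SD, n = 5). Its fold of 0.980 had the narrowest interval (0.933 to 1.03, edgeR adjusted p = 0.639). Abhd6 was the single member for which B6 replicates 3 and 5 were not the highest B6 mice.

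Abhd12 had 23911, 26678, 30098, 26070 and 29482 normalized counts in B6 replicates 1 to 5 and 23917, 24119, 26194, 23333 and 24604 in D2 replicates 1 to 5. The strains overlapped, with B6 replicates 1 and 4 inside the range of the D2 mice. The log2 fold change was -0.16 (standard error 0.060, edgeR adjusted p = 0.093). Without B6 replicate 1 it passed, at -0.20 (adjusted p = 0.017), but this was the lowest B6 mouse, so leaving it out widens the difference by itself. With the cortex covariate the log2 fold change of -0.20 also passed (adjusted p = 0.0017). Without B6 replicates 3 and 5 it was -0.07 (adjusted p = 0.388).

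Set against each other per kb of exons, Mgll made up 54.4% ± 1.76 of the transcript level of the 3 hydrolases in B6 and 57.2% ± 1.70 in D2. Abhd12 made up 35.0% ± 1.31 and 32.2% ± 1.25, and Abhd6 made up 10.6% ± 0.943 and 10.6% ± 0.680 (SD, n = 5). The order of Mgll and Abhd12 depended on the length used. Over the 10 mice they were nearly level by the longest annotated transcript, at 46.9% and 45.9%. Without division by length Abhd12 came first, at 52.1% against 39.4% for Mgll. Per kb of exons, the Abhd12 share did not overlap between the strains, with B6 mice between 33.67% and 37.1% and D2 mice between 30.8% and 33.65%. The nearest mice of the strains were thus almost level. Of single genes, 16.0% did not overlap between the strains, and the background for such shares was not counted. The share is made from counts given above, in which the strains overlapped for Abhd12, so it is not a separate result. The shares of Mgll and Abhd6 overlapped. The log2 ratio of Mgll over Dagla, hydrolase over synthase of 2-AG, averaged 0.77 ± 0.060 (SD, n = 5) for B6 mice and 0.86 ± 0.11 for D2 mice, and that of Dagla over Daglb was 1.58 ± 0.085 and 1.49 ± 0.072. Both ratios overlapped between the strains, while the ratio of Faah over Napepld was narrowly apart.

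**Figure D2:**
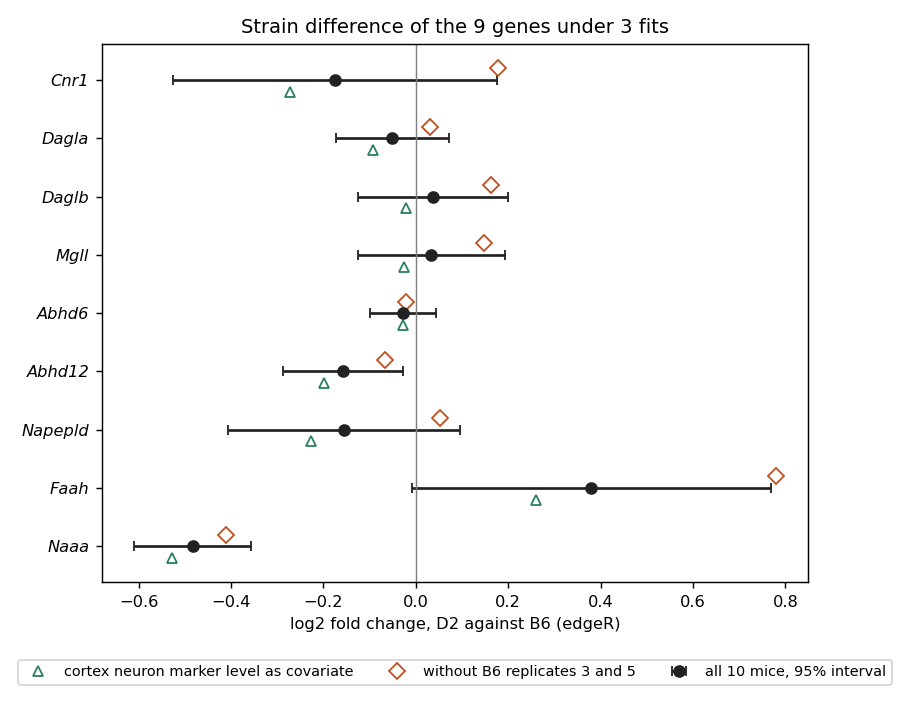
Log2 fold change of D2 against B6 (x axis) of the 9 genes from edgeR, as dots with 95% intervals for all 10 mice, triangles with the cortex neuron marker level as a covariate and diamonds without B6 replicates 3 and 5. Naaa lies below 0 in all 3 fits and Faah above 0 in all 3, while Cnr1, Dagla, Daglb, Mgll and Napepld lie on both sides of 0. The fit with the striatal neuron marker level as a covariate, in which Faah was at -0.05, is not drawn.

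Cnr1 encodes the CB1 receptor, a G protein-coupled receptor that inhibits adenylyl cyclase. It is carried by medium spiny neurons, by interneurons and by axons from the cortex that end in the striatum. Cnr1 had 10230, 11040 and 11859 normalized counts in B6 replicates 1, 2 and 4 and 18668 and 18733 in B6 replicates 3 and 5. D2 replicates 1 to 5 had 12230, 13892, 11243, 13000 and 12123.

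The D2 mice thus lay between the B6 mice, above replicates 1 and 2 and far below replicates 3 and 5. The log2 fold change was -0.17 (standard error 0.16, edgeR adjusted p = 0.541), with a fold interval from 0.695 to 1.13. Its sign depended on the libraries kept. It was 0.18 without B6 replicates 3 and 5 (adjusted p = 0.080) and -0.27 with the cortex covariate (adjusted p = 0.0055). With the striatal covariate it was -0.56 (adjusted p = 0.011), and with B6 replicate 3 or 5 alone left out it was -0.059 in either case (adjusted p = 0.859 and 0.858). The variation between mice was 30.0% of the mean in B6 and 7.99% in D2 (coefficient of variation). Only Faah varied more in B6, by 33.5%.

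B6 replicates 3 and 5 were the 2 highest B6 mice for 8 of the 9 members, an order also seen in 25.9% of all genes of a mean count of 100 or more. After each strain's mean was taken off, the log2 levels of Cnr1 and Faah over the 10 mice had a Pearson's r of 0.95, those of Cnr1 and Mgll 0.87 and those of Cnr1 and Abhd6 0.13. These values are a description without a test, and they share the 2 B6 libraries with high cortex neuron markers. By the same measure, the genes most like Cnr1 of 15387 were Gm34583, Cort and Vstm2b (0.98 to 0.99), those most like Faah were Golga7b, Slc9a9 and Mical2 (0.995 to 0.996), and those most like Mgll were Rogdi, Lhx2 and Tiam2 (0.98 to 0.99). The summed counts of Cck, Vip, Sst, Pvalb and Npy, listed as markers of GABA interneurons, were likewise 34565 and 33911 in B6 replicates 3 and 5. In the other B6 mice they were 20673 to 23745 normalized counts. Only the sum is given, and in bulk tissue with unequal cortex neuron markers it cannot be assigned to interneurons. The part of the genes in this sum in the Cnr1 and Faah levels was not tested.

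**Figure D3:**
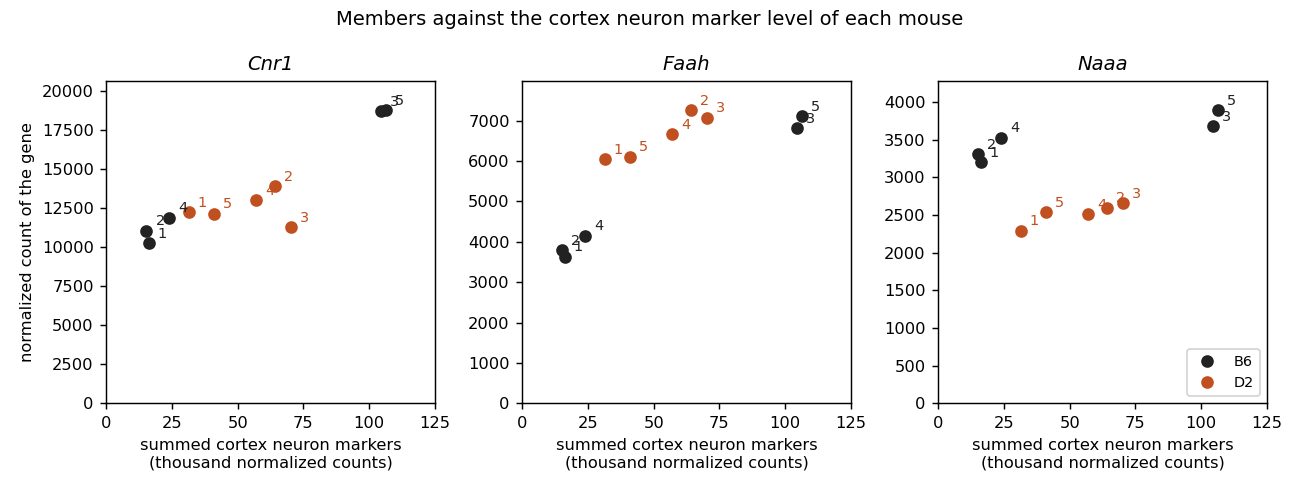
Normalized counts of Cnr1, Faah and Naaa (y axes, from 0) against the summed normalized counts of 6 cortex neuron markers (x axes), 1 point per mouse with its replicate number, B6 black and D2 orange. B6 replicates 3 and 5 are at the far right in each panel and no B6 mouse lies within the D2 range of the x axis. All D2 points of Naaa lie under all B6 points.

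Per kb of exons, the order of the 9 genes over the 10 mice ran from Mgll, with 29.3 ± 2.56 TMM-scaled CPM per kb (SD, n = 10), to Napepld with 0.994 ± 0.155. Between them came Abhd12 (17.6 ± 1.61), Cnr1 (13.1 ± 2.98), Dagla (10.03 ± 0.685), Abhd6 (5.54 ± 0.153), Naaa (5.25 ± 0.988), Faah (4.91 ± 1.21) and Daglb (2.13 ± 0.194). The ranges over mice overlapped between Abhd12 and Cnr1, between Cnr1 and Dagla, between Abhd6 and Naaa and between Naaa and Faah. The order of Abhd6, Naaa and Faah was that of neither strain, since B6 had 6.13 for Naaa, 5.60 for Abhd6 and 4.27 for Faah, and D2 had 5.55 for Faah, 5.49 for Abhd6 and 4.38 for Naaa. Ranges did not overlap between Mgll and Abhd12, between Dagla and Abhd6, between Faah and Daglb, or between Daglb and Napepld. By the longest annotated transcript in place of all exons, Mgll and Abhd12 were nearly level, at 42.3 and 41.4, and Faah and Naaa, at 9.16 and 9.10, came before Abhd6 at 6.48.

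**Figure D4:**
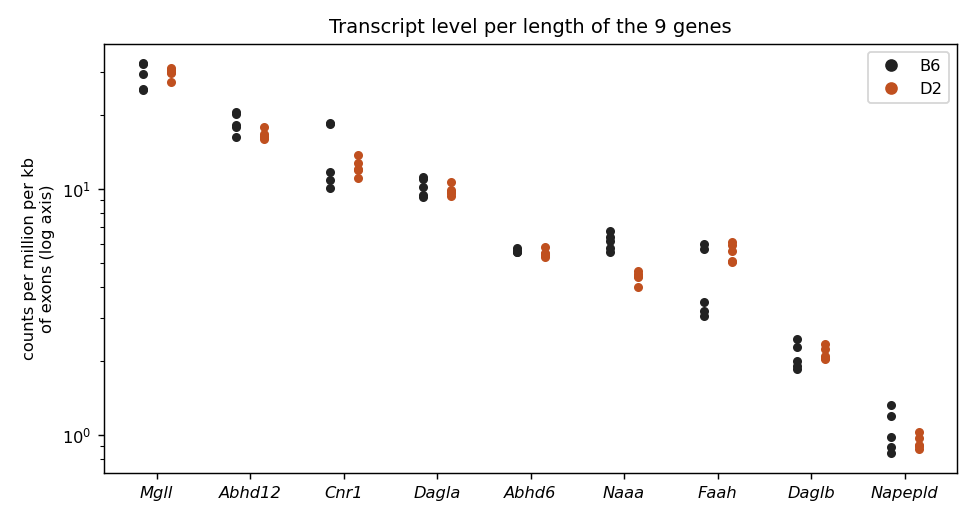
Transcript level per length (y axis, TMM-scaled CPM per kb of annotated exons, log axis) of the 9 genes in order of their mean, 1 point per mouse, B6 black and D2 orange. The levels span from 0.994 for Napepld to 29.3 for Mgll, and the strains are fully apart in Naaa alone.

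The genes next to the members were counted within 250 kb of each, against 18.3% of all genes called. Of 15 tested genes near Naaa, 2 were called higher and 2 lower in D2, and of 19 near Faah, 0 were higher and 1 was lower. The largest share was near Mgll, with 6 of 18 called. Among the 6 is Gm26588, which shares 496 exon bases with Mgll on the opposite strand, and their reads there cannot be told apart if strand was not used. There was 1 tested gene near Cnr1, which was not called.

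Beyond the 9, a list of 30 other genes of the pathway held 13 that passed the test, 3 higher and 10 lower in D2 (edgeR, where 8.50% and 9.83% of all genes were called higher and lower). The count was 14 (5 higher, 9 lower) without B6 replicates 3 and 5, 15 (5 higher, 10 lower) with the cortex and 9 (1 higher, 8 lower) with the striatal covariate. The median log2 fold change of the list was -0.09. Since 20 of the 30 had a mean of at least 100 counts and 10 of those passed, the background of 23.8% at that depth is the nearer one. The strains did not overlap in 10 of the 30, against 16.0% of all genes and 20.7% of genes at that depth. Nothing particular to the list, or to its groups counted below, is read from these counts. The shares of all genes given here apply to each group as well.

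Among 9 other genes of N-acylethanolamine synthesis, 1 rose and 3 fell, where 8.50% and 9.83% of all genes were called higher and lower. Pla2g4e, the calcium-dependent N-acyltransferase that makes the precursor of anandamide, had 809.6, 879.0, 1294.1, 971.9 and 1162.4 normalized counts in B6 replicates 1 to 5 and 2468.9, 2794.5, 2949.4, 2795.6 and 2536.1 in D2 replicates 1 to 5. Each D2 mouse was far above each B6 mouse, and the D2 level was 2.65-fold higher (log2 fold change 1.41, standard error 0.11, edgeR adjusted p = 1.7e-06). Without B6 replicates 3 and 5 its log2 fold change was 1.61, and it was 1.32 with the cortex covariate. Plaat3 and Abhd4, 2 further genes of this group, were at 0.814 and 0.846 of the B6 level. Plaat5, also called lower, had a mean of 5.0 counts.

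Of the 4 phospholipase C beta genes, whose enzymes make the diacylglycerol from which 2-AG is cut, 3 fell and 0 rose. Of all genes, 9.83% were called lower and 8.50% higher, and 23.8% were called at a mean of at least 100 counts. Plcb1 had 30288.2, 27794.8, 37065.7, 31404.2 and 36587.5 normalized counts in B6 replicates 1 to 5 and 22758.3, 23282.1, 26204.8, 24676.6 and 24812 in D2 replicates 1 to 5, and the strains did not overlap. Its log2 fold change was -0.42 (standard error 0.076, edgeR adjusted p = 0.0015), and it was -0.29 without B6 replicates 3 and 5 and -0.48 with the cortex covariate. Plcb2 and Plcb3 were at 0.811 and 0.846 of the B6 level, and Plcb4 had a log2 fold change of 0.22 that did not pass (adjusted p = 0.253 from edgeR).

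Of 4 lipid carriers, 1 rose and 1 fell. Fabp5, a fatty acid binding protein that carries anandamide inside the cell, had 6552.6, 6938.1, 6472.6, 6698.2 and 6816.9 normalized counts in B6 replicates 1 to 5 and 3946.9, 3959.8, 3817.6, 3842.8 and 4165.6 in D2 replicates 1 to 5. The strains were far apart and B6 replicates 3 and 5 were level with the others. The log2 fold change was -0.76 (standard error 0.034, edgeR adjusted p = 8.6e-09), -0.77 without B6 replicates 3 and 5 and -0.76 with the cortex covariate. Fabp5 has a processed pseudogene, Fabp5l2, in the annotation, and how reads that match both were counted is not stated. Fabp3 was 1.14-fold higher in D2.

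Of 8 receptors and partners of the receptor, 2 fell and 0 rose. Sgip1, a protein that binds CB1 and holds it at the cell surface, was at 0.769 of the B6 level in D2, without overlap of the strains. Gpr55, a receptor for lysophosphatidylinositol, was called at a mean of 29.1 counts. The CB2 receptor gene Cnr2 had a mean of 23.3 counts and did not pass. Of 5 other enzymes of breakdown, Alox12, a lipoxygenase, fell to 0.381 of the B6 level at a mean of 68.8 counts, and Ddhd2, a lipase, was 1.08-fold higher.

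**Figure D5:**
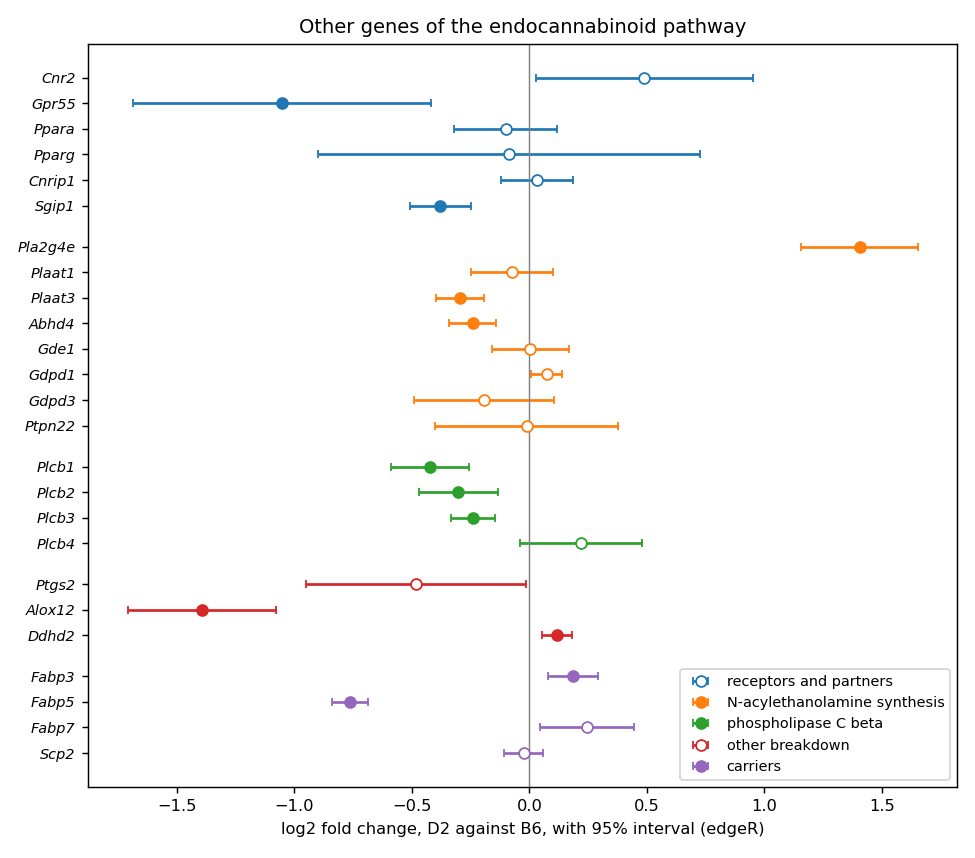
Log2 fold change of D2 against B6 with its 95% interval (x axis, edgeR) for the 25 other pathway genes whose mean count was 20 or more, in 5 groups by colour. Filled points passed an adjusted p of 0.05. Pla2g4e lies farthest to the right at 1.41, and 3 of the 4 phospholipase C beta genes lie left of 0.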

How the data were processed

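Poly-A RNA from the NAc of male mice, 5 per strain, was sequenced as 1 library per mouse. The authors used fastp for trimming, STAR 2.7.10b to align the reads of each strain to the Ensembl GRCm39 genome and counted with featureCounts, and the submitters' processing notes also name SAMtools 1.6. The deposited table holds whole-number counts by gene that were not normalized, without genes of median 0. The paper's methods name a stranded kit, but the strand setting of the counting is not given in the sources used here, and the labels and the methods name different library makers.

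Symbols, positions and lengths were taken from GENCODE vM39 (GRCm39), a later annotation than the one counted on; 29519 of 29883 genes matched. Counts were fitted with edgeR 4.0.16 (R 4.3.3; TMM, quasi-likelihood F test, two-sided, strain as the factor, all 10 libraries, no further filter), with Benjamini-Hochberg adjustment over all genes. Standard errors were obtained from the F statistic and the log2 fold change, and intervals are 95%. Mice are the replicates. DESeq2 1.42.0 was an alternative, beside other scalings, filters, covariates, the replicate number as a block and each mouse left out. The cortex neuron list was used without 1 marker, which is not reported here. Shares, ratios, levels per kb and likeness over mice are descriptions.

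The members, gene lists and tests were chosen with earlier results of these data known. Named were all 9 members, list genes past the threshold by count, with full values for the 3 of largest change at a mean of at least 100 counts, and the 3 genes most like Cnr1, Faah and Mgll. Pathway and neighbouring genes named beyond this rule were named after their values were seen.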

Additional observations from a re-analysis of the deposited data

Results flagged for a closer look

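Abhd6 in B6 replicate 5 had 4340 normalized counts, apart from the other 4 B6 mice, by a gap of 0.729 of the range of the strain where Dixon's critical value for 5 samples is 0.71. The 5 B6 mice spanned only 4184 to 4340. This was 1 of 24 groups tested, and chance alone marks about 1 in 20 groups.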

How the results depend on the processing

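The call of Naaa, the direction of Abhd12 and the calls of Pla2g4e, Fabp5 and Plcb1 were the same in all 22 alternatives. The count of members called, 1 with all mice, was 2 with the replicate block, 5 with the cortex and 4 with the striatal covariate, 3 without B6 replicates 3 and 5 together (chosen after seeing the data), and 1 to 2 with single mice left out. It was 2 without B6 replicate 1 (Abhd12 and Naaa) and without B6 replicate 5 (Faah and Naaa). The pathway count of 13 was 8 at an adjusted p under 0.01, 9 with the striatal and 15 with the cortex covariate, 14 without B6 replicates 3 and 5, and 11 to 13 with single mice left out.

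The sign of the log2 fold change turned for Abhd6 with total counts (0.0027), for Daglb (-0.021) and Mgll (-0.027) with the cortex covariate, and for Daglb (-0.13), Mgll (-0.090) and Faah (-0.046) with the striatal covariate. It also turned for Daglb without B6 replicate 1 (-0.0032) or D2 replicate 3 (-0.0038), for Mgll without B6 replicate 1 (-0.0092) or 2 (-0.012), and without B6 replicates 3 and 5 for Cnr1 (0.18), Dagla (0.030) and Napepld (0.052). With single mice left out, Daglb reached 0.091 and Mgll 0.070. The cause was not tested. The mean shares of Mgll, Abhd6 and Abhd12 were 39.4%, 8.50% and 52.1% without division by length and 46.9%, 7.22% and 45.9% by the longest transcript, where the share of Mgll in the sum of the 9 was 28.8%.

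The replicate numbers are not stated to pair mice. The deviations of same-numbered mice had correlations of 0.37, -0.42, 0.37, 0.034 and -0.29 for numbers 1 to 5, and 2 of 5 B6 mice were most like the D2 mouse of their own number. With the number as a replicate block, 2 members (Abhd12 and Naaa) and 11 pathway genes passed.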
